A study of Mus musculus with 8 samples.

Results

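Interleukin 2, its receptor chains and the other receptor genes of the common gamma chain family that were followed here were measured in cultured mouse lung group 2 innate lymphoid cells (ILC2s), lymphocytes that carry no antigen receptor and make type 2 cytokines. The genes were chosen by name: Il2, Il2ra, Il2rb, Il2rg, Il7r, Il4ra, Il9r, Il15ra and Il21r. All 9 are among the 22075 genes of the expression table, and all 9 passed the filter on low values. Of them, 8 encode receptor chains and 1, Il2, encodes a ligand.

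RNA was sequenced from 8 libraries in 4 groups of 2: STAT3-KO with IL-33, WT with IL-33, STAT3-KO control and WT control. STAT3-KO cells came from VavicreStat3fl/fl mice, in which Cre acts across blood cells, and WT cells from Stat3fl/fl mice without Cre, so that loss of Stat3 and presence of Cre cannot be told apart. All groups were C57BL/6 lung ILC2s taken after brief papain exposure and expanded with IL-2 (10 ng/ml, some 5 days), and the IL-33 groups were then given 10 ng/ml IL-33, an epithelial alarm cytokine, for 2 days. The labels do not give the medium of the controls during those 2 days, nor whether the 2 libraries of a group came from separate mice or cultures. P-values therefore measure the spread between these libraries, which may be technical. If the controls were taken earlier or kept in another medium, culture time or IL-2 differed too. Such differences cannot be told apart from IL-33, so IL-33 response here names the difference between the groups.

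Receptors of this family pair a private chain with the common gamma chain, Il2rg, and signal through JAK1 and JAK3 to STAT proteins, mainly STAT5 for IL-2, IL-7, IL-9 and IL-15, STAT6 for IL-4 and STAT3 for IL-21. Il2ra raises the affinity of the IL-2 receptor for its ligand, while Il2rb and Il2rg carry the signal. Lung ILC2s are known to carry Il7r and Il2ra on their surface and to need IL-7 receptor signals to develop.

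Levels are given in FPKM, which corrects fragment numbers for gene length and library depth, so that they can be set side by side between genes. Depths recovered from the values lay between 15843685 and 19905817 reads per library. Stat3, the deleted gene, had 8.03 and 9.69 FPKM in STAT3-KO cells with IL-33, against 49.0 and 55.3 FPKM in WT cells with IL-33, and 15.3 and 16.0 FPKM in STAT3-KO controls, against 41.7 and 50.7 FPKM in WT controls. Both genotype differences passed the test (log2 difference -2.43 with IL-33, adjusted p = 2.22e-05, and -1.50 in controls, adjusted p = 0.00771). The call in controls was lost without STAT3-KO control replicate 1 (adjusted p = 0.0749), without replicate 2 (adjusted p = 0.0692) and in a fit of the 4 control libraries alone (adjusted p = 0.216). Mitochondrially encoded transcripts took 6.12% and 6.26% of the summed FPKM in STAT3-KO cells with IL-33, 3.33% and 2.31% in WT cells with IL-33, 6.86% and 7.13% in STAT3-KO controls and 6.18% and 5.55% in WT controls, and the part of this share in the results was not tested. In such bulk libraries, fewer cells that use a gene and less RNA of that gene per cell cannot be told apart.

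Of 13 ILC2 markers, 12 were measured, none was at 0 in any library, and their sum lay between 2994 and 9886 FPKM, most of it from Il5, Il13, Id2, Klrg1, Gata3, Il1rl1, Icos and Arg1. Il1rl1, Klrg1, Gata3, Id2, Arg1, Il17rb and Thy1 were lowest in STAT3-KO cells with IL-33, and Il5 and Il13 in the controls. Il1rl1 had 78.5 and 92.4 FPKM in STAT3-KO cells with IL-33 and 350 and 370 FPKM in WT cells with IL-33. Its control levels were 389 and 359 FPKM in STAT3-KO and 231 and 424 FPKM in WT cells. Klrg1 had 279 and 298 FPKM in STAT3-KO cells with IL-33 and 884 and 943 FPKM in WT cells with IL-33. Its controls had 601 and 628 FPKM in STAT3-KO and 931 and 822 FPKM in WT cells. Il17rb, a chain of the IL-25 receptor, had 0.232 and 0.471 FPKM in STAT3-KO cells with IL-33, 2.28 and 2.54 FPKM in WT cells with IL-33, 26.7 and 27.9 FPKM in STAT3-KO controls and 27.2 and 33.8 FPKM in WT controls. Thy1 had 2.56 and 2.37 FPKM in STAT3-KO cells with IL-33, 31.7 and 38 FPKM in WT cells with IL-33, 19.6 and 21.3 FPKM in STAT3-KO controls and 37.2 and 41.9 FPKM in WT controls. Rora lay between 6.27 and 6.49 FPKM in the 4 libraries with IL-33 and between 18.1 and 21.5 FPKM in the 4 controls. Icos and Bcl11b were lowest in WT cells with IL-33 instead. Icos had 102 and 84.8 FPKM there, against 105 and 115 FPKM in STAT3-KO cells with IL-33. Bcl11b had 6.70 and 8.33 FPKM in WT cells with IL-33, against 11.0 and 8.96 FPKM in STAT3-KO cells with IL-33. Sums over markers of other cells were 4.65 to 9.64 FPKM for T cells (7 of 8 markers measured), 0.441 to 4.52 FPKM for ILC3 (4 of 5 measured) and 0.312 to 6.78 FPKM for macrophages and monocytes (4 of 6 measured). They were 2.30 to 7.28 FPKM for dendritic cells (4 of 6 measured) and 0 to 0.907 FPKM for granulocytes (3 of 6 measured). For epithelial and stromal cells (4 of 8 measured) they were 21.2 to 31.0 FPKM. Pecam1 made up most of that last sum, with 15.2 to 26.5 FPKM, beside at most 9.50 FPKM for Epcam. In absolute FPKM the lists of NK cells, mast cells and B cells differed more between groups, and their values stand beside the receptors that those cells are known to carry. By ratio, low sums differed too. The ILC3 sum ran from 0.441 FPKM in WT cells with IL-33 to 4.52 FPKM in WT controls. The macrophage and monocyte sum ran from 0.312 FPKM in WT controls to 6.78 FPKM in WT cells with IL-33.

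The IL-2 receptor alpha chain and the IL-7 receptor moved in opposite directions with IL-33, and both stood lower in STAT3-KO than in WT cells with IL-33. To show the DNA before the starts of these genes, the 250 bases before the RefSeq start are printed for both, and for the neighbouring genes Il4ra and Il21r (GRCm38.p6, 5′ to 3′ on the strand of the gene). RefSeq promoters were found for 8 of the 9 genes, and Il15ra had windows at both of its listed starts, which gave 9 windows. Capitals mark matches to TTCNNNGAA (a spacing bound by STAT proteins) or the same arms 4 bases apart, the AP-1 pattern (TGA, any base, then TCA), AGATAA (bound by GATA factors) or GGGNNNTCC (NF-kB), searched on both strands from 250 bases before to 50 after the start. The Il2ra stretch lies at chr2:11642542-11642791 on the plus strand, that of Il7r at chr15:9529877-9530126 on the minus strand, that of Il4ra at chr7:125552021-125552270 on the plus strand and that of Il21r at chr7:125603179-125603428 on the plus strand. RefSeq starts can differ from the gene spans given below: the Il4ra stretch runs past 125552120, where the span of Il4ra begins.
Il2ra: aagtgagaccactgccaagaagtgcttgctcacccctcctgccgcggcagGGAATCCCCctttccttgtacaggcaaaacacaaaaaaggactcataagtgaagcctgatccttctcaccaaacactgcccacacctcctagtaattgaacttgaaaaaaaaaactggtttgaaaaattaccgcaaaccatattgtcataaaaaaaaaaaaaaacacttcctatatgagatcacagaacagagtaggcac
Il7r: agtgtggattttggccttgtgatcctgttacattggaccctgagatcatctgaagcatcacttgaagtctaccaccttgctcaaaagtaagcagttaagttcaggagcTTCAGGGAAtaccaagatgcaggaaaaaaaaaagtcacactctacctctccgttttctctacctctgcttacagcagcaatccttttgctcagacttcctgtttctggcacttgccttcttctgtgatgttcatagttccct
Il4ra: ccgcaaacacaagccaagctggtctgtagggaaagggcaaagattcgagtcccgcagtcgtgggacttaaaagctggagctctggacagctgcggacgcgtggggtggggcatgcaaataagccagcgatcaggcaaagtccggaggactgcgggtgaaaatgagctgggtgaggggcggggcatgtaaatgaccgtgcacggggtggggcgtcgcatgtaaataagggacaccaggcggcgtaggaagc
Il21r: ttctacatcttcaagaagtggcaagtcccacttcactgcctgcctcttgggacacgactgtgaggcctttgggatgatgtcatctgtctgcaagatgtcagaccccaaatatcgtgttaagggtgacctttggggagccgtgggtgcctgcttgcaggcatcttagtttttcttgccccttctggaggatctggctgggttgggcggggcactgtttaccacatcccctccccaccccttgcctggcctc
Il2ra held 1 match to GGGNNNTCC, beginning at -200 from the start, and Il7r held 1 match to TTCNNNGAA, beginning at -142. The match of Il4ra, to GGGNNNTCC, began 20 bases after the start and so lies beyond the printed stretch, and Il21r had none of these letter patterns in its window. Elsewhere, AGATAA occurred in Il9r at -223 and -30 and the AP-1 pattern in the window of the other Il15ra start at -30, and no 2 matches overlapped. Such patterns are common: among 32851 promoters of the same length, 8.30% held TTCNNNGAA, 6.95% the wider spacing, 7.81% the AP-1 pattern, 11.2% AGATAA and 17.8% GGGNNNTCC. A match describes letters and shows no binding.

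Il2ra, the alpha chain of the IL-2 receptor (CD25, ENSMUSG00000026770, chromosome 2, 11642807 to 11693193, plus strand), rose with IL-33 in both genotypes and rose less in STAT3-KO cells. It had 328 and 363 FPKM in STAT3-KO cells with IL-33, 889.8 and 1049 FPKM in WT cells with IL-33, 105 and 107 FPKM in STAT3-KO controls and 79.1 and 109 FPKM in WT controls. Both IL-33 groups lay above all controls, both WT libraries with IL-33 lay above both STAT3-KO libraries with IL-33, and the control groups overlapped. The IL-33 response was 3.26-fold by group means in STAT3-KO cells (log2 difference 1.70 ± 0.15 SE, adjusted p = 5.96e-05) and 10.3-fold in WT cells (3.36 ± 0.15, adjusted p = 3.42e-06). STAT3-KO cells with IL-33 held 0.356 of the WT level (-1.48 ± 0.15, adjusted p = 0.000258). The gap between the genotypes in their response was itself past the threshold, at -1.67 ± 0.22 (adjusted p = 0.00266). These values rest on 30558 and 36797 reads in STAT3-KO cells with IL-33 and on 101159 and 97548 reads in WT cells with IL-33. A gene model on the same strand inside Il2ra, Gm37881, shared its pattern with 5.54 and 5.08 FPKM in STAT3-KO cells with IL-33, 13.5 and 17.1 FPKM in WT cells with IL-33, 3.53 and 3.11 FPKM in STAT3-KO controls and 1.27 and 3.45 FPKM in WT controls, and reads of the overlap cannot be told apart.

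Il2rb, the beta chain that IL-2 and IL-15 receptors share (CD122, ENSMUSG00000068227, chromosome 15, 78480553 to 78495066, minus strand), followed the same pattern at a smaller size. Its levels were 161 and 167 FPKM in STAT3-KO cells with IL-33, 267 and 293 FPKM in WT cells with IL-33, 89.8 and 81.6 FPKM in STAT3-KO controls and 80.0 and 88.2 FPKM in WT controls. Again the 2 IL-33 groups were separate from each other and from the controls, which overlapped. With IL-33, Il2rb stood at 1.92-fold the control level in STAT3-KO cells (0.93 ± 0.10, adjusted p = 0.000167) and 3.33-fold in WT cells (1.72 ± 0.10, adjusted p = 1.16e-05). With IL-33, STAT3-KO cells held 0.587 of the WT level (-0.76 ± 0.10, adjusted p = 0.000944), and the responses differed by -0.79 ± 0.14 (adjusted p = 0.00992). NK cells carry Il2rb too: the 6 of 7 NK cell and ILC1 markers measured here summed to 4.44 and 4.98 FPKM in STAT3-KO cells with IL-33, 2.51 and 2.61 FPKM in WT cells with IL-33, 27.7 and 29.9 FPKM in STAT3-KO controls and 8.78 and 10.5 FPKM in WT controls. That sum was lowest where Il2rb was highest. Most of it came from Tbx21, with 4.44 and 4.55 FPKM in STAT3-KO cells with IL-33, 0 and 0.444 FPKM in WT cells with IL-33, 19.7 and 21 FPKM in STAT3-KO controls and 4.12 and 3.04 FPKM in WT controls, and from Prf1, with up to 9.16 FPKM. The other 4 markers (Ncr1, Klrb1c, Eomes and Klrd1) were at most 0.973 FPKM in any library, and the part of this list in the Il2rb differences was not tested.

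Il2rg, the common gamma chain (CD132, ENSMUSG00000031304, chromosome X, 101264378 to 101268255, minus strand), stood lower with IL-33 in both genotypes. It had 238 and 182 FPKM in STAT3-KO cells with IL-33, 241 and 220.3 FPKM in WT cells with IL-33, 334 and 291 FPKM in STAT3-KO controls and 293 and 299.7 FPKM in WT controls. All IL-33 libraries lay below all controls, while the genotypes overlapped within each treatment. The fall with IL-33 passed the test in STAT3-KO cells (-0.58 ± 0.14, adjusted p = 0.00775). It was lost when libraries were rescaled by median ratios (-0.36, adjusted p = 0.063) and without STAT3-KO control replicate 1 (-0.48, adjusted p = 0.0597). The WT difference was -0.36 ± 0.14 (adjusted p = 0.0667), past the threshold under 5 of 16 alternatives. The difference between the genotypes with IL-33 was -0.14 ± 0.14 (adjusted p = 0.459) and that between the responses -0.22 ± 0.19 (adjusted p = 0.477).

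Il7r, the alpha chain of the receptors for IL-7 and TSLP (CD127, ENSMUSG00000003882, chromosome 15, 9506161 to 9529876, minus strand), fell with IL-33 in both genotypes and fell further in STAT3-KO cells. Its levels were 69.6 and 78.4 FPKM in STAT3-KO cells with IL-33, 180.4 and 173 FPKM in WT cells with IL-33, 544 and 581 FPKM in STAT3-KO controls and 501 and 543 FPKM in WT controls. Both STAT3-KO libraries with IL-33 were the lowest and the WT libraries with IL-33 came next, while the controls of the 2 genotypes lay next to each other without overlap. With IL-33, Il7r stood at 0.131 of the control level in STAT3-KO cells (-2.91 ± 0.10, adjusted p = 4.95e-07) and 0.339 in WT cells (-1.56 ± 0.10, adjusted p = 1.52e-05). STAT3-KO cells with IL-33 held 0.418 of the WT level (-1.25 ± 0.10, adjusted p = 7.13e-05), and the responses differed by -1.36 ± 0.14 (adjusted p = 0.000999). The ILC2 markers Il1rl1, Klrg1, Gata3, Id2, Arg1, Il17rb and Thy1 were also lowest in STAT3-KO cells with IL-33. Icos and Bcl11b were lowest in WT cells with IL-33, and Il5 and Il13 in the controls, as given above. The part of these markers in the Il7r difference was not tested. Crlf2, the chain that joins Il7r in the TSLP receptor, averaged 18.1 FPKM in STAT3-KO cells with IL-33 and 53.2 FPKM in WT cells with IL-33 (-1.53 ± 0.22, adjusted p = 0.00142). Its means in controls were 30.9 FPKM in STAT3-KO and 38.2 FPKM in WT cells.

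**Figure D1:**
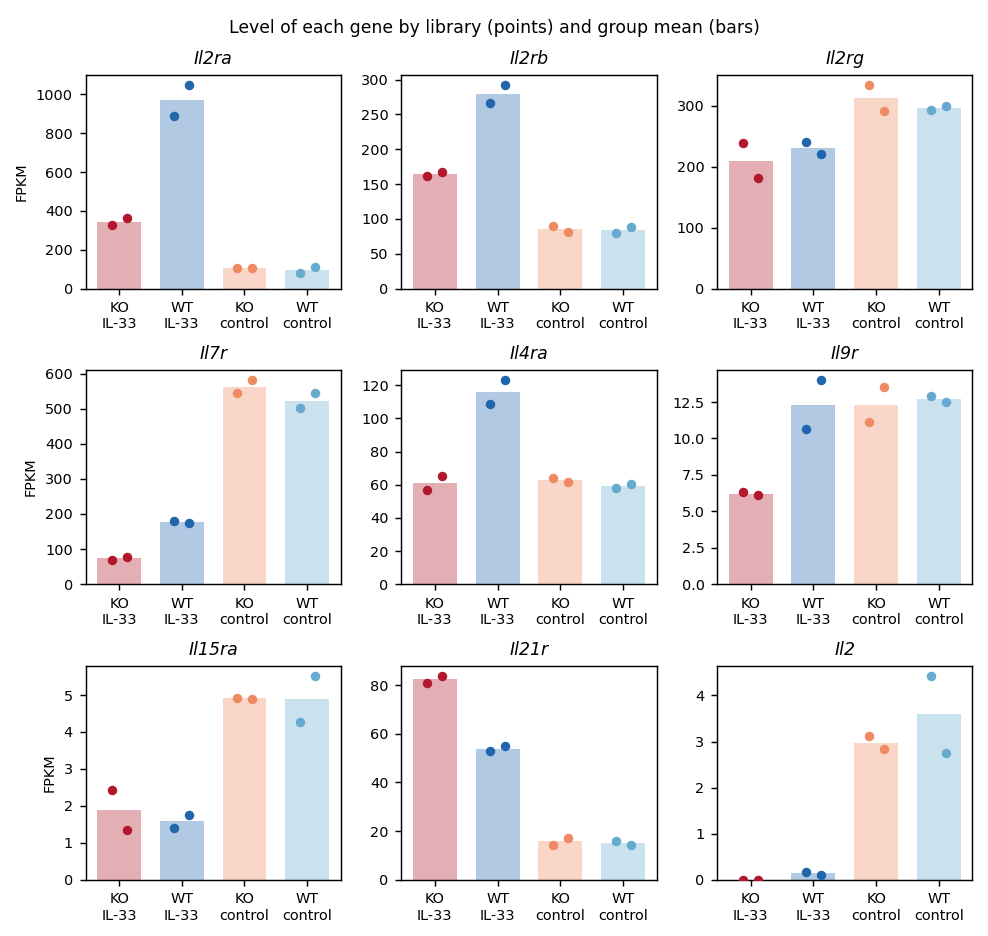
FPKM of each of the 9 genes (y axes, linear, each from 0) in the 4 groups (x axis, KO standing for STAT3-KO), with a point for each library and a bar at the group mean of 2 libraries. Il2ra is highest in WT with IL-33 (889.8 and 1049 FPKM), Il7r is lowest in STAT3-KO with IL-33 (69.6 and 78.4 FPKM) and Il21r is highest in STAT3-KO with IL-33 (80.9 and 83.8 FPKM).

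Il4ra, the chain of the IL-4 and IL-13 receptors (ENSMUSG00000030748, chromosome 7, 125552120 to 125579474, plus strand), rose with IL-33 in WT cells. It had 56.6 and 65.3 FPKM in STAT3-KO cells with IL-33, 109 and 123 FPKM in WT cells with IL-33, 64.3 and 61.4 FPKM in STAT3-KO controls and 57.8 and 60.2 FPKM in WT controls. WT cells with IL-33 stood above every other library, and STAT3-KO cells with IL-33 overlapped both control groups. The WT rise was 1.97-fold (0.96 ± 0.11, adjusted p = 0.000398). In STAT3-KO cells the difference was -0.05 ± 0.11 (adjusted p = 0.746), or 0.17 after median-ratio rescaling (adjusted p = 0.237). STAT3-KO cells with IL-33 held 0.525 of the WT level (-0.92 ± 0.11, adjusted p = 0.000621), and the responses differed by -1.01 ± 0.16 (adjusted p = 0.00578).

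Il21r, the IL-21 receptor (ENSMUSG00000030745, chromosome 7, 125603429 to 125633570, plus strand), lies 23954 bases from Il4ra with 0 annotated genes between. It had 80.9 and 83.8 FPKM in STAT3-KO cells with IL-33, 52.7 and 55.0 FPKM in WT cells with IL-33, 14.4 and 17.1 FPKM in STAT3-KO controls and 15.7 and 14.2 FPKM in WT controls. STAT3-KO cells with IL-33 were the highest group, WT cells with IL-33 the next, and the controls overlapped. With IL-33, Il21r stood at 5.23-fold the control level in STAT3-KO cells (2.32 ± 0.12, adjusted p = 3.85e-06) and 3.6-fold in WT cells (1.78 ± 0.12, adjusted p = 2.37e-05). It was higher in STAT3-KO than in WT cells with IL-33, at 1.53-fold (0.60 ± 0.12, adjusted p = 0.00637), while the difference between the responses, 0.54 ± 0.17, missed the threshold (adjusted p = 0.0691). B cells carry this receptor too: the 2 of 4 B cell markers measured here, Cd79a and Cd79b, summed to 19.6 and 21.9 FPKM in STAT3-KO cells with IL-33, 13.1 and 13.9 FPKM in WT cells with IL-33, 3.26 and 4.13 FPKM in STAT3-KO controls and 7.92 and 8.15 FPKM in WT controls. Cd79a was at most 1.17 FPKM, so that Cd79b made up most of the sum. It was highest where Il21r was highest, and its part in the result was not tested.

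Il9r, the IL-9 receptor (ENSMUSG00000020279, chromosome 11, 32187541 to 32200279, minus strand), was low in STAT3-KO cells with IL-33. Its levels were 6.34 and 6.11 FPKM in STAT3-KO cells with IL-33, 10.6 and 14.0 FPKM in WT cells with IL-33, 11.1 and 13.5 FPKM in STAT3-KO controls and 12.9 and 12.5 FPKM in WT controls. The STAT3-KO libraries with IL-33 lay below the other 6, which overlapped. It fell with IL-33 in STAT3-KO cells to 0.506 of the control level (-0.88 ± 0.17, adjusted p = 0.00305), with a WT difference of -0.05 ± 0.17 (adjusted p = 0.82). STAT3-KO cells with IL-33 held 0.505 of the WT level (-0.87 ± 0.17, adjusted p = 0.0052), and the difference between the responses was -0.82 ± 0.24 (adjusted p = 0.051). Mast cells carry Il9r: the 3 of 6 mast cell and basophil markers measured here summed to 7.49 and 8.68 FPKM in STAT3-KO cells with IL-33, 127 and 155 FPKM in WT cells with IL-33, 111 and 140.4 FPKM in STAT3-KO controls and 299 and 326 FPKM in WT controls. That sum was also lowest in STAT3-KO cells with IL-33, and its part in the Il9r difference was not tested. Of its 3 genes, Cpa3 had 7.52 and 7.49 FPKM in STAT3-KO cells with IL-33, 34.6 and 41.8 FPKM in WT cells with IL-33, 111 and 140.4 FPKM in STAT3-KO controls and 326 and 299 FPKM in WT controls. Mcpt8 had 92.8 and 114 FPKM in WT cells with IL-33 and at most 0.25 FPKM elsewhere, and Cma1 had at most 0.91 FPKM.

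Il15ra, the IL-15 receptor alpha chain, which presents IL-15 to cells with Il2rb and Il2rg (ENSMUSG00000023206, chromosome 2, 11705290 to 11734317, plus strand), lies 12096 bases from Il2ra with 0 annotated genes between. It had 2.44 and 1.34 FPKM in STAT3-KO cells with IL-33, 1.41 and 1.74 FPKM in WT cells with IL-33, 4.91 and 4.91 FPKM in STAT3-KO controls and 4.28 and 5.52 FPKM in WT controls. All IL-33 libraries lay below all controls and the genotypes overlapped. The fall passed in STAT3-KO cells (-1.06 ± 0.23, adjusted p = 0.00571) and in WT cells (-1.19 ± 0.23, adjusted p = 0.005). The responses differed by 0.13 ± 0.33 (adjusted p = 0.82), on 106 to 389 reads per library.

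Il2, the ligand (ENSMUSG00000027720, chromosome 3, 37120523 to 37125959, minus strand), was a low transcript of the controls. It had 0 and 0 FPKM in STAT3-KO cells with IL-33, 0.176 and 0.107 FPKM in WT cells with IL-33, 3.12 and 2.83 FPKM in STAT3-KO controls and 4.43 and 2.76 FPKM in WT controls. This corresponds to 0 and 0 reads in STAT3-KO cells with IL-33, 4 and 2 reads in WT cells with IL-33, 60 and 52 reads in STAT3-KO controls and 85 and 50 reads in WT controls. All IL-33 libraries lay below all controls, and the genotypes overlapped in the controls. In STAT3-KO cells with IL-33 the 0 reads allow up to 0.161 and 0.148 FPKM (3 reads per library, counting error alone), so that Il2 was at least 19.3-fold lower than in STAT3-KO controls. WT cells with IL-33 held 0.0394 of the mean of WT controls. The fitted differences, -1.99 ± 0.23 in STAT3-KO cells (adjusted p = 0.000235) and -1.98 ± 0.23 in WT cells (adjusted p = 0.000397), depend on the pseudocount at such levels. With IL-33 the genotypes differed by -0.19 ± 0.23 (adjusted p = 0.576), a difference that was not detectable at this depth. Il21, its neighbour 96799 bases away, was at 0 in both libraries of 3 groups and averaged 0.0414 FPKM in WT cells with IL-33.

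Counted together, 3 of the 9 genes rose and 5 fell with IL-33 in STAT3-KO cells, where 20.4% of all 11877 tested genes were called higher and 30.6% lower. In WT cells 4 rose (Il2ra, Il2rb, Il4ra and Il21r) and 3 fell (Il2, Il7r and Il15ra), where 14.5% of all tested genes were called higher and 21.6% lower. With IL-33, 1 gene was higher and 5 were lower in STAT3-KO than in WT cells, where 16.3% of all tested genes were called higher and 16.4% lower. In the test of the difference between the responses, 0 were called higher and 4 lower (Il2ra, Il2rb, Il7r and Il4ra), against 6.72% higher and 8.43% lower over all tested genes. Il9r and Il21r missed the threshold there. By limma, 6 of the 9 had an unadjusted p under 0.05 in that test. The share of all tested genes by unadjusted p is not given here, so this count cannot be set beside the shares above. The median log2 difference of the 9 genes was -0.58 for IL-33 in STAT3-KO cells and -0.05 for IL-33 in WT cells, beside -0.18 in STAT3-KO and -0.14 in WT cells over all tested genes. Between the genotypes with IL-33 it was -0.76, beside 0.01 over all tested genes, and in the difference between the responses -0.79, beside -0.02. Median-ratio rescaling moved the all-gene median to -0.01 for IL-33 in STAT3-KO cells and to -0.00119 for IL-33 in WT cells, and the calls then split 3140 higher to 2761 lower in place of 2425 to 3638 in STAT3-KO cells, and 2299 to 1863 in place of 1724 to 2561 in WT cells. Under it Il2ra differed by 1.92 with IL-33 in STAT3-KO cells and 3.54 in WT cells, and Il7r by -2.69 in STAT3-KO and -1.38 in WT cells.

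**Figure D2:**
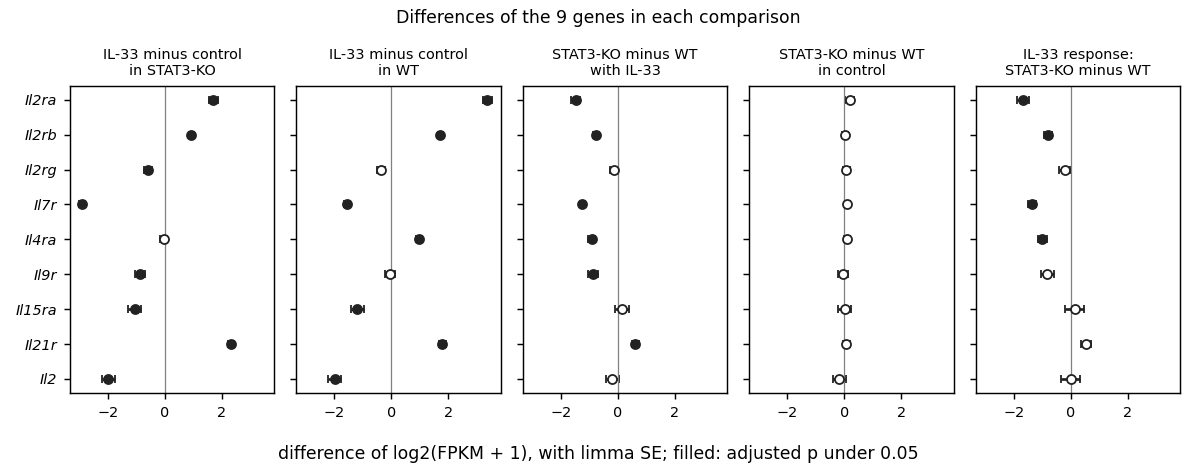
Difference of log2(FPKM + 1) with its limma standard error (x axes) for each of the 9 genes (y axis), in a panel for each of the 5 comparisons, filled where the adjusted p is under 0.05. The control panel holds 0 filled points, with differences between -0.18 and 0.18, and the interaction panel holds 4, for Il2ra, Il2rb, Il7r and Il4ra.

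Without IL-33 the genotypes gave 0 calls among the 9 genes by limma, and 0 of the 9 had an unadjusted p under 0.05. Over all tested genes 0.253% were called higher and 0.21% lower in STAT3-KO than in WT controls by adjusted p. The share by unadjusted p is not given here. The differences ran between -0.18 ± 0.23 for Il2 and 0.18 ± 0.15 for Il2ra, with Il7r at 0.11 ± 0.10 and Il4ra at 0.09 ± 0.11. These intervals leave room for modest differences and do not show that the levels are equal.

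The order of the chains by FPKM differed between the groups. In STAT3-KO cells with IL-33 it ran Il2ra, Il2rg, Il2rb, Il21r, Il7r, Il4ra, Il9r, Il15ra and Il2, and in WT cells with IL-33 Il2ra, Il2rb, Il2rg, Il7r, Il4ra, Il21r, Il9r, Il15ra and Il2, with no overlap between neighbours in either group. In both control groups Il7r came first, followed by Il2rg, Il2ra, Il2rb, Il4ra, Il21r, Il9r, Il15ra and Il2. Neighbours were separate in STAT3-KO controls, whereas in WT controls Il2ra overlapped Il2rb and Il15ra overlapped Il2.

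The 8 receptor chains summed to 943.5 and 946 FPKM in STAT3-KO cells with IL-33, 1751 and 1929.6 FPKM in WT cells with IL-33, 1168 and 1158 FPKM in STAT3-KO controls and 1044.5 and 1133 FPKM in WT controls. In the unscaled FPKM the sum was lowest in STAT3-KO cells with IL-33 and highest in WT cells with IL-33. The median-ratio size factors were 0.933 and 0.944 in STAT3-KO cells with IL-33 and 1.05 and 1.10 in WT controls. Rescaling therefore narrows the gap between these groups, and the lowest place depends on the scaling. Il2ra made up 34.8% and 38.3% of it in STAT3-KO cells with IL-33, 50.8% and 54.4% in WT cells with IL-33, 8.97% and 9.23% in STAT3-KO controls and 7.58% and 9.63% in WT controls. Il7r made up 7.37% and 8.28% in STAT3-KO cells with IL-33, 10.3% and 8.99% in WT cells with IL-33, 46.6% and 50.2% in STAT3-KO controls and 48.0% and 48.0% in WT controls. The leading chain was thus Il2ra in all 4 libraries with IL-33 and Il7r in all 4 controls.

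Although both genes were lower in STAT3-KO than in WT cells with IL-33, the ratio of Il2ra to Il7r lay close together in the 2 genotypes, without overlap. It was 4.72 and 4.63 in STAT3-KO cells with IL-33, 4.93 and 6.05 in WT cells with IL-33, 0.192 and 0.184 in STAT3-KO controls and 0.158 and 0.201 in WT controls. Set against the common gamma chain, Il2ra stood at 1.38 and 2.00 in STAT3-KO cells with IL-33, 3.70 and 4.76 in WT cells with IL-33, 0.313 and 0.367 in STAT3-KO controls and 0.270 and 0.364 in WT controls. Il7r stood at 0.292 and 0.432 of Il2rg in STAT3-KO cells with IL-33, 0.75 and 0.787 in WT cells with IL-33, 1.63 and 1.99 in STAT3-KO controls and 1.71 and 1.81 in WT controls. Both of these ratios were lower in STAT3-KO than in WT cells with IL-33 without overlap, and those of the controls overlapped. The ratio of Il4ra to its neighbour Il21r was 0.699 and 0.779 in STAT3-KO cells with IL-33, 2.07 and 2.24 in WT cells with IL-33, 4.46 and 3.59 in STAT3-KO controls and 3.67 and 4.24 in WT controls. Il21r therefore exceeded Il4ra in STAT3-KO cells with IL-33 and in no other group.

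**Figure D3:**
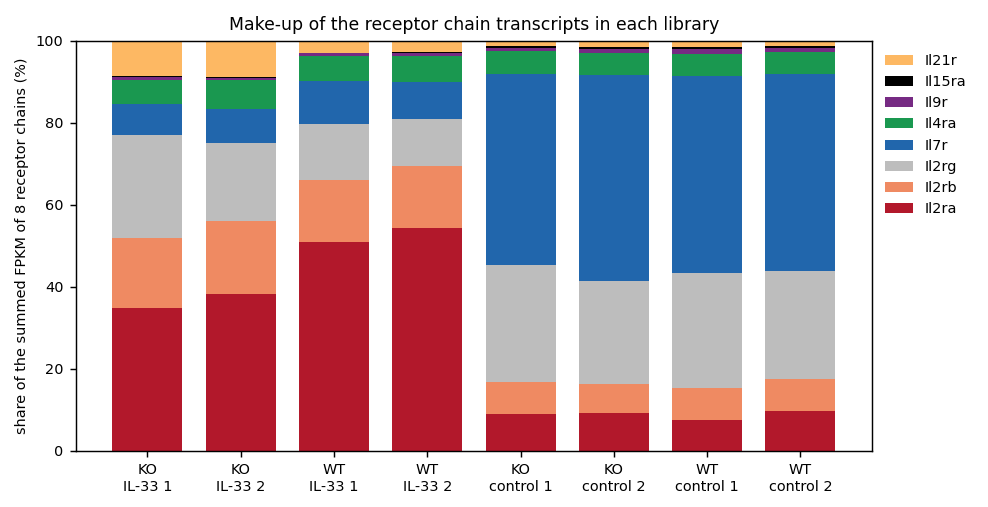
Share (y axis, %) of each of the 8 receptor chains in their summed FPKM in each library (x axis, KO standing for STAT3-KO). Il2ra takes 34.8% and 38.3% in STAT3-KO and 50.8% and 54.4% in WT with IL-33, and Il7r takes between 46.6% and 50.2% in the 4 controls.

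Among 5964 protein-coding genes with a mean of at least 5 FPKM, those whose log2(FPKM + 1) followed Il2ra most closely over the 8 libraries included Il2rb (Pearson r = 0.997) and Crybg1 (0.995). Those nearest to Il7r were the kinase gene Stk24 (0.999), the interferon gamma receptor gene Ifngr1 (0.997) and Leprotl1 (0.996). Between the 9 genes themselves, Il7r and Il21r ran opposite (-0.98), Il2ra and Il15ra ran opposite (-0.902) and Il7r ran with Il2 (0.935). The 8 points share 4 groups of libraries and one treatment contrast, so these values describe the pattern alone.

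Of the ligands of these receptors and TSLP, 3 of 7 passed the filter on low values (Il4, Il9 and Il13), and Il7, Il15, Il21 and Tslp stayed below it, with group means of at most 0.489 FPKM. Over all tested genes, the shares called were 20.4% higher and 30.6% lower for IL-33 in STAT3-KO cells, 14.5% and 21.6% for IL-33 in WT cells, and 16.3% and 16.4% between the genotypes with IL-33, and the counts of the pathway lists stand beside these. In the last comparison the median log2 difference was 0.01 over all tested genes, -0.14 over the JAK and STAT genes, -0.15 over the feedback inhibitors, 0.15 over the genes induced through STAT5, -0.26 over those induced through STAT6 and -0.26 over the transcription factors. Means of the pathway genes are given ± SD over 2 libraries, and their log2 differences ± SE. With IL-33, Il9 averaged 257.6 ± 52.6 FPKM in STAT3-KO and 1.29 ± 0.692 FPKM in WT cells, while controls averaged 0.169 ± 0.0747 FPKM in STAT3-KO cells and were listed at 0 in WT cells. Il9 was thus high in the group where its receptor was lowest. It passed the filter on low values only through STAT3-KO cells with IL-33, where it is high. Its test is therefore tied to the filter and is no independent support, although the filter does not set the size of the difference. Il13 averaged 672 ± 66.8 FPKM in STAT3-KO and 2402 ± 539 FPKM in WT cells with IL-33 (-1.82 ± 0.16, adjusted p = 0.000138), and 46.9 ± 1.31 FPKM in STAT3-KO and 34.2 ± 5.17 FPKM in WT controls. Il4, made beside Il13 on chromosome 11, averaged 2.66 ± 0.0602 FPKM in STAT3-KO and 6.03 ± 1.09 FPKM in WT cells with IL-33 (-0.93 ± 0.20, adjusted p = 0.00809), a call lost without WT IL-33 replicate 1 (-0.78, adjusted p = 0.0653). Of the partner chains Crlf2, Il13ra1 and Il13ra2, Crlf2 alone was analysed here.

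Of 9 JAK and STAT genes, 2 rose and 4 fell with IL-33 in STAT3-KO cells, 3 rose and 2 fell in WT cells, and 2 were higher and 4 lower in STAT3-KO than in WT cells with IL-33. The 4 lower genes include Stat3 itself, the deleted gene, and the other 3 were Jak1, Jak3 and Stat4. Jak3 (-0.45 ± 0.14, adjusted p = 0.0427) and Stat4 (-0.50 ± 0.14, adjusted p = 0.025) lay nearer to the threshold, and no alternatives are given for these calls. Of the 3 that rose in WT cells, Jak2 and Jak3 each lost that call in 5 alternatives. Jak1, the kinase bound by the private chains, had 30.6 and 36.2 FPKM in STAT3-KO cells with IL-33, 108.9 and 109.0 FPKM in WT cells with IL-33, 113 and 119.5 FPKM in STAT3-KO controls and 90.3 and 122 FPKM in WT controls. It was low in STAT3-KO cells with IL-33 alone, and the responses differed by -1.82 ± 0.21 (adjusted p = 0.00172). Jak3, the kinase bound by the gamma chain, averaged 59.8 ± 4.36 FPKM in STAT3-KO and 82.4 ± 10.8 FPKM in WT cells with IL-33, and 56.1 ± 6.26 FPKM in STAT3-KO and 57.4 ± 7.73 FPKM in WT controls. Stat5a was higher in STAT3-KO than in WT cells with IL-33, with 26.2 and 29.6 FPKM in STAT3-KO cells against 12.4 and 12.7 FPKM in WT cells (1.09 ± 0.16, adjusted p = 0.00128). Stat5b was higher too, with 14.7 and 18.4 FPKM in STAT3-KO cells against 8.79 and 7.95 FPKM in WT cells (0.90 ± 0.16, adjusted p = 0.00336). The 2 STAT5 genes are near-identical in parts and Stat5a overlaps Stat3 at its end, so the split of their reads is uncertain. Stat6, which IL-4 and IL-13 use, fell with IL-33 in STAT3-KO cells (-1.01 ± 0.15, adjusted p = 0.000951) and in WT cells (-0.80 ± 0.15, adjusted p = 0.00473).

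**Figure D4:**
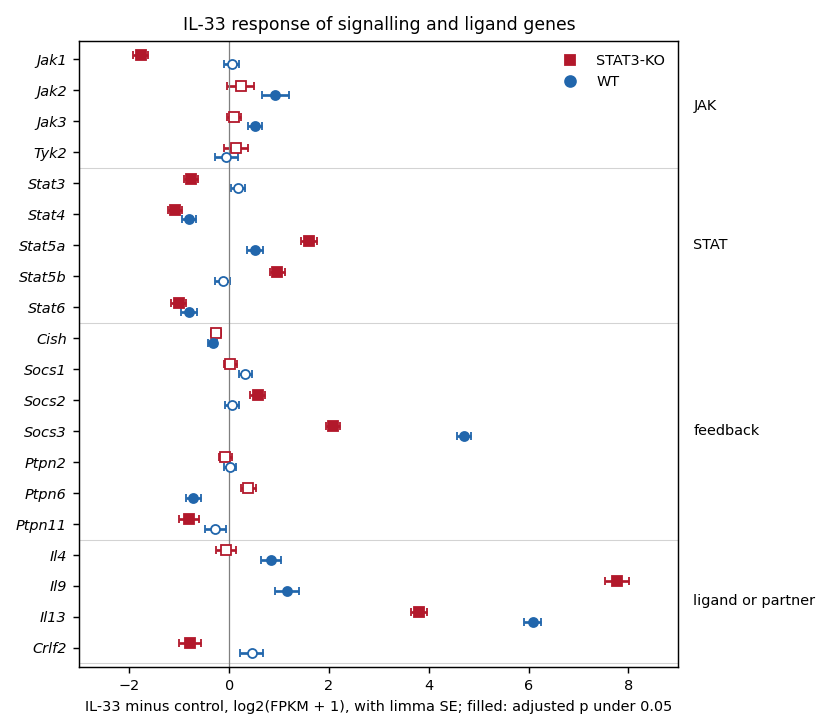
IL-33 response, as the difference of log2(FPKM + 1) with its limma standard error (x axis), of the JAK, STAT, feedback, ligand and partner chain genes reported here (y axis), as squares for STAT3-KO and circles for WT, filled where the adjusted p is under 0.05. Jak1 lies at -1.77 in STAT3-KO and 0.05 in WT, and Socs3 at 2.08 in STAT3-KO and 4.71 in WT.

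Of 7 feedback inhibitors of cytokine receptors, 2 rose and 1 fell with IL-33 in STAT3-KO cells, and 1 rose and 2 fell in WT cells. With IL-33, 2 were higher and 1 lower in STAT3-KO than in WT cells. For the IL-33 response, the call of Cish in WT cells was lost in 8 alternatives and that of Ptpn6 in WT cells in 1. Those of Socs2 and Ptpn11 in STAT3-KO cells were lost in 3 each. The higher call of Socs2 between the genotypes with IL-33 was lost in 1. Socs3, an inhibitor of JAK signals, had 14.9 and 16.4 FPKM in STAT3-KO cells with IL-33 and 167 and 190.6 FPKM in WT cells with IL-33 (-3.43 ± 0.15, adjusted p = 4.79e-06). Its control levels were 2.57 and 3.34 FPKM in STAT3-KO and 5.92 and 5.83 FPKM in WT cells. Cish, a gene induced through STAT5, averaged 66.6 ± 4.12 FPKM in STAT3-KO and 59.6 ± 1.65 FPKM in WT cells with IL-33 (0.16 ± 0.10, adjusted p = 0.26), and 80.0 ± 2.84 FPKM in STAT3-KO and 75.2 ± 2.45 FPKM in WT controls.

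Of 16 tested genes known to be induced through IL-2 or IL-7 and STAT5, 8 rose and 3 fell with IL-33 in STAT3-KO cells, 10 rose and 1 fell in WT cells, and 5 were higher and 4 lower in STAT3-KO than in WT cells with IL-33. Among those higher, Lta, a TNF family ligand, averaged 570.7 ± 40.9 FPKM in STAT3-KO and 115 ± 14.5 FPKM in WT cells with IL-33 (2.31 ± 0.12, adjusted p = 9.8e-06). Bcl2l1, which protects cells from death, averaged 294.7 ± 24 FPKM in STAT3-KO and 107 ± 9.32 FPKM in WT cells with IL-33 (1.45 ± 0.11, adjusted p = 7.41e-05), and Ccnd2, a cyclin, 231 ± 13 FPKM in STAT3-KO and 100.5 ± 1.06 FPKM in WT cells (1.19 ± 0.09, adjusted p = 5.64e-05). Among those lower, Gzmb, a protease of cytotoxic granules, averaged 0.107 ± 0.151 FPKM in STAT3-KO and 81.2 ± 3.77 FPKM in WT cells with IL-33 (-6.22 ± 0.17, adjusted p = 6.01e-07). Id2, needed for innate lymphoid cells to form, averaged 622 ± 39.1 FPKM in STAT3-KO and 1448 ± 21.1 FPKM in WT cells with IL-33 (-1.22 ± 0.08, adjusted p = 4.15e-05). The list therefore split between the directions, while Il2ra and Il2rb were both lower in STAT3-KO cells with IL-33.

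Of 5 tested genes known to be induced through IL-4 or IL-13 and STAT6, 2 rose and 2 fell with IL-33 in STAT3-KO cells, 2 rose and 1 fell in WT cells, and 1 was higher and 2 lower in STAT3-KO than in WT cells with IL-33. Gata3, the factor that defines ILC2s, averaged 173 ± 2.33 FPKM in STAT3-KO and 285 ± 10.3 FPKM in WT cells with IL-33 (-0.72 ± 0.08, adjusted p = 0.00038). Irf4, a transcription factor, was the higher gene, with an average of 50.9 ± 16.3 FPKM in STAT3-KO and 25.6 ± 2.91 FPKM in WT cells with IL-33 (0.93 ± 0.21, adjusted p = 0.0107). Its call was lost in the fit of the 4 libraries with IL-33 alone and without WT IL-33 replicate 2 (adjusted p of 0.0626 and 0.0897). Arg1, an arginase, averaged 276 ± 22 FPKM in STAT3-KO and 503 ± 10.1 FPKM in WT cells with IL-33 (-0.86 ± 0.09, adjusted p = 0.000294).

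Of 14 tested transcription factors known to act on Il7r or Il2ra, 4 rose and 8 fell with IL-33 in STAT3-KO cells, 1 rose and 5 fell in WT cells, and 1 was higher and 4 lower in STAT3-KO than in WT cells with IL-33. Ets1 averaged 10.4 ± 1.55 FPKM in STAT3-KO and 72.8 ± 5.83 FPKM in WT cells with IL-33 (-2.70 ± 0.12, adjusted p = 6.47e-06), and 79.7 ± 2.6 FPKM in STAT3-KO and 100.4 ± 3.64 FPKM in WT controls. Of the 4 lower genes, Gabpa (-0.81 ± 0.20, adjusted p = 0.0169) and Nfatc2 (-0.69 ± 0.20, adjusted p = 0.0298) lost the call without either replicate of STAT3-KO with IL-33 or of WT with IL-33 (adjusted p between 0.0672 and 0.166), and Nfatc2 also with no filter. Nfkb1 averaged 15.8 ± 2.23 FPKM in STAT3-KO and 33 ± 1.94 FPKM in WT cells with IL-33 (-1.02 ± 0.12, adjusted p = 0.00054). Junb, an AP-1 subunit, averaged 449.9 ± 13.3 FPKM in STAT3-KO and 447 ± 62.8 FPKM in WT cells with IL-33, against 89.0 ± 1.94 FPKM in STAT3-KO and 87.8 ± 3.23 FPKM in WT controls. Without IL-33, 0 genes of these lists were called between the genotypes other than Stat3. Over all tested genes 0.253% were called higher and 0.21% lower there, so 0 calls in such short lists do not show equal levels. Among genes not called, Socs3 differed by -0.80 ± 0.15 (limma adjusted p = 0.0731) and Il13 by 0.45 ± 0.16 (adjusted p = 0.418).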

How the data were processed

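RNA levels were analysed in 8 libraries of cultured ILC2s, 2 in each of 4 groups, assigned by the labels. The authors made the deposited FPKM values with Bowtie2 and RSEM on GRCm38, per the submitters' processing notes; versions, annotation and strand setting are not given in the sources used here. Of 22075 gene identifiers, 22041 were found in GENCODE M21, which gave exon lengths. FPKM times exon length gave whole reads (within 0.02) for 93.5% to 94.6% of low values and hence the depth. The counting behind the FPKM is not fully described, so reads given here are recovered from the values and are not counts from the authors. For Il2rb and Il7r the span in the table differs from M21, so no reads are given for them.

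Log2(FPKM + 1) of the 11877 genes with at least 1 FPKM in at least 2 libraries was fitted with 1 mean per group in limma 3.58.1 under R 4.3.3 (trended prior, 4 residual degrees of freedom). There were 5 comparisons, with two-sided p-values adjusted by Benjamini-Hochberg over all tested genes and called at 0.05. ± is the limma standard error, folds are ratios of mean FPKM, and log2 differences understate changes of low genes. Self-tests used simulated data. Of each pathway list, up to 4 called genes of smallest p per comparison could be named, and some genes are not reported here. The genes and lists were chosen with earlier results of these data known, so directions already seen there are no independent evidence. The alternatives were other pseudocounts, filters, scaling, fits, a replicate block and leaving out each library. Figures were drawn with matplotlib 3.10.9.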

Additional observations from a re-analysis of the deposited data

Results flagged for a closer look

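The IL-33 response differed between STAT3-KO and WT cells for 4 of the 9 genes, by limma's test of the difference itself, with values that are the STAT3-KO response minus the WT response on the log2 scale. These were -1.67 for Il2ra, -1.36 for Il7r, -1.01 for Il4ra and -0.79 for Il2rb, and each stayed past the threshold in all 15 alternatives run for it.

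Pathway genes with such a difference fell on both sides. The response was lower in STAT3-KO than in WT cells for Gzmb (-6.89), Socs3 (-2.63), Ets1 (-2.37), Il13 (-2.27), Jak1 (-1.82), Id2 (-1.03), Nfkb1 (-0.95), Gata3 (-0.88) and Arg1 (-0.77). It was higher for Lta (1.76) and Bcl2l1 (1.12). Il9 also differed (6.61), but it entered the test only through STAT3-KO cells with IL-33, where it is high, so this call is no independent support. Stat3 itself differed by -0.94, a call lost in 6 alternatives, without WT control replicate 1, WT IL-33 replicate 1 or 2, STAT3-KO control replicate 1 or 2, or STAT3-KO IL-33 replicate 1 (differences between -1.02 and -0.80).

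For 5 more genes the call depended on a library. Crlf2 (-1.23) lost it without any library other than STAT3-KO IL-33 replicate 1, with no filter and with no prior trend (-1.44 to -0.89). Gfi1 (1.01) lost it without any library other than WT control replicate 2, and with no filter (1.00 to 1.05). Stat5a (1.08) and Ptpn6 (1.11) lost it without STAT3-KO control replicate 2 or WT IL-33 replicate 1 or 2 (0.92 to 1.10 for Stat5a and 1.04 to 1.13 for Ptpn6). Stat5b (1.10) lost it without STAT3-KO control replicate 1 or WT IL-33 replicate 2 (1.03 and 1.05).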

How the results depend on the processing

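Of 392 alternative values of the 25 called differences of the 9 genes, 390 kept the call and 0 changed direction; the 2 losses were those of Il2rg given in the report. With a mean of at least 5 FPKM, Il2 and Il15ra were not tested, and the lows of 6 given next for the IL-33 responses come from that setting. The count of called genes among the 9 was 8 for IL-33 in STAT3-KO (6 to 8 under the alternatives) and 7 for IL-33 in WT (6 to 8). The same count was 0 between controls, 6 between genotypes with IL-33 and 4 in the interaction (5 with a mean of at least 5 FPKM). Without each library in turn it ranged from 7 to 8, 7 to 8, 0 to 0, 6 to 6 and 4 to 4; the group left with 1 library is then assumed to vary like the others. The count over all genes, with each library left out in turn, ranged from 4238 to 6220 for IL-33 in STAT3-KO (6063 with all), 2550 to 4301 for IL-33 in WT (4285), 1 to 35 between controls (55), 2117 to 4013 between genotypes with IL-33 (3876) and 764 to 1993 in the interaction (1799). It was 3803 for IL-33 in STAT3-KO with a mean of at least 5 FPKM, 34 between controls with a pseudocount of 0.1, 0 between controls with the compared libraries alone, and 1149 in the interaction with no filter. The cause was not tested.

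Directions that turned belonged to differences that were not called. Rescaling gave 0.00374 for the interaction of Il2, 0.17 for Il4ra with IL-33 in STAT3-KO, 0.11 for Il9r with IL-33 in WT and -0.011 for Il15ra between controls. With a library left out, control differences ranged from -0.45 to 0.080 for Il2, -0.044 to 0.41 for Il2ra, -0.042 to 0.097 for Il2rb, -0.025 to 0.17 for Il2rg, -0.18 to 0.080 for Il9r, -0.14 to 0.16 for Il15ra and -0.048 to 0.18 for Il21r. Genotype differences with IL-33 ranged from -0.34 to 0.050 for Il2rg and -0.14 to 0.42 for Il15ra, IL-33 responses from -0.15 to 0.054 for Il4ra in STAT3-KO and -0.24 to 0.13 for Il9r in WT, and interactions from -0.27 to 0.26 for Il2 and -0.15 to 0.41 for Il15ra.

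Replicate numbers showed no broad shared shift: deviations of same-numbered libraries from their group means correlated between -0.0619 and 0.0448 over the tested genes. Such values cannot exclude a pairing with small effects or effects on few genes. With the replicate block 8 of the 9 genes were called for IL-33 in WT, Il2rg joining (adjusted p = 0.0387), and 8, 0, 6 and 4 in the other comparisons, as without it. Il2 with IL-33 rests on 0 to 4 reads a library. Each group has 2 libraries.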
